A study of Mus musculus with 52 samples.

Results

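In mouse embryonic stem cells (mESCs) that lost the CXXC domains of both KDM2A and KDM2B, 8 genes were picked because one of their promoters became less accessible relative to other promoters. These were Pdgfa, Pecam1, Ldb2, Rims2, Snx10, Rffl, Hacd1 and Urgcp. Their symbols matched 12 of the 20633 promoter intervals of the deposited tables, because Rims2, Snx10, Rffl and Urgcp were each listed with 2 start sites. In all 4 of those genes it was the downstream start site that was past the cut on which the genes had been picked. Thus 8 promoters were past the cut and 4 upstream promoters of the same genes were not. The upstream promoter of Rims2 was lower as well but missed the cut on its adjusted p. The tamoxifen contrast of the Kdm2a/b-CXXC line picked these genes, so its values are given below as a description without a test. The other 3 lines were not used for that choice.

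The measurement was calibrated ATAC-seq (cATAC-seq), in which the Tn5 transposase tags open chromatin and Drosophila SG4 cells added to each sample serve as the calibrator. Each line carried loxP-flanked exons and a tamoxifen-inducible Cre (CreERT2) at the ROSA26 locus, and untreated (UNT) cells of a line were compared with the same line after 96 h of 800 nM 4-hydroxytamoxifen (TAM). In Kdm2a/b-CXXC cells the treatment removed the exons of the CXXC domain of both proteins, in Kdm2a-CXXC and Kdm2b-CXXC cells those of 1 of them, and in Kdm2a/b-JmjC cells the exons of the JmjC domain of both. The paper reports that this JmjC deletion took away the long isoforms of both proteins. Their short isoforms, which have no JmjC domain but keep the CXXC domain, remained. The Kdm2a/b-CXXC line was a clone obtained by editing the Kdm2b-CXXC line, the Kdm2a-CXXC line was a clone made in other ROSA26 CreERT2 mESCs, and all lines were treated with the same drug, so an effect of tamoxifen or Cre itself cannot be told apart from that of the deletion within a line. There were 4 untreated and 4 treated libraries of Kdm2a/b-CXXC and 3 of each for the other lines, 26 in all, which the study describes as biological replicates.

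KDM2A and KDM2B are chromatin proteins that read unmethylated CpG dinucleotides through a CXXC zinc finger, and therefore accumulate at CpG islands, the CpG-dense and mostly unmethylated stretches at which many mammalian genes start. Their long isoforms also carry a JmjC domain, a histone lysine demethylase fold, and KDM2B recruits a variant of the Polycomb repressive complex that silences developmental genes. A promoter is called accessible where nucleosomes leave its DNA open to the transposase, which is usual at active or poised start sites.

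The 8 promoters did not form 1 sequence class. With CpG-rich defined as 50% GC or more, and 0.6 or more CpGs observed per CpG expected from the base composition of the 400-base interval, 3 of the 8 were in this class (Hacd1, Pdgfa and Urgcp), which is 37.5%, against 54.6% of the promoters with a sequence. CpG numbers ran from 3 at Snx10 and Rffl to 60 at Hacd1, with a median of 13.5 against 24 over all of them. Of the 4 upstream promoters of the same genes, 3 were CpG-rich (Snx10, Rims2 and Urgcp). Below are 200 bases on the 5′ side of the start site, in build mm10 and on the gene's strand, with CpG dinucleotides in capitals. They show the CpG-richest promoter (Hacd1), the one with the largest fall (Ldb2), and both start sites of Snx10 and Rffl, whose downstream promoter fell while the upstream one did not.

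Hacd1 (NM_001012396, chr2:14056036-14056235, minus strand): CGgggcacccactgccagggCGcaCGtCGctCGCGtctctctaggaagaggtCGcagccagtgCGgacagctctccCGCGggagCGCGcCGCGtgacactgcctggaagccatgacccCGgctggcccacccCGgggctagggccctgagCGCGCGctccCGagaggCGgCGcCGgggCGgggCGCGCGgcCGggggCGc
Ldb2 (NM_001077398, chr5:44799747-44799946, minus strand): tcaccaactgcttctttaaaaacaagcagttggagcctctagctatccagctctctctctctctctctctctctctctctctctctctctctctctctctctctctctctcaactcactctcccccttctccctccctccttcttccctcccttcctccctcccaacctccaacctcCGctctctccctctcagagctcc
Snx10 downstream (NM_001127348, chr6:51544323-51544522, plus strand): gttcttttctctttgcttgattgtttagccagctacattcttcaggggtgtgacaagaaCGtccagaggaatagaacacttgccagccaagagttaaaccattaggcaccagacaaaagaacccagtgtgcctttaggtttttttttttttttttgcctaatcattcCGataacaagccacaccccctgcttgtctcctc
Snx10 upstream (NM_001127349, chr6:51523703-51523902, plus strand): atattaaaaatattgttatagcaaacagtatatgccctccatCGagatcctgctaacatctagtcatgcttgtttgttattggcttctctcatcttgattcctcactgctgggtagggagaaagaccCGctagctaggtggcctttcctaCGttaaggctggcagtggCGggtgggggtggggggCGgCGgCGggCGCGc
Rffl downstream (NM_026097, chr11:82829044-82829243, minus strand): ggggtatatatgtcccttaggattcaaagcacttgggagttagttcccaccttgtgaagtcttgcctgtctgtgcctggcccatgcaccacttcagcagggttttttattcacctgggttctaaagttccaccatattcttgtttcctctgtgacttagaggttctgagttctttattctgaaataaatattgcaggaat
Rffl upstream (NM_001164570, chr11:82870745-82870944, minus strand): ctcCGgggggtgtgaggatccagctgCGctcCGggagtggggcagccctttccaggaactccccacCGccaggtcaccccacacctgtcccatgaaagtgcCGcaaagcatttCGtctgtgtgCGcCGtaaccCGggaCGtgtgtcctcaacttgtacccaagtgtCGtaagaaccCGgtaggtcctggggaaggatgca

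These 200 bases held 29 CpGs at Hacd1, 1 at Ldb2, 2 and 9 at the downstream and upstream start sites of Snx10, and 0 and 12 at those of Rffl. Urgcp, which is not shown, also fell at its downstream start site only, but there the order was reversed, with 18 CpGs downstream and 15 upstream. At Rims2, where both start sites fell, the numbers were 8 and 12. The Ldb2 stretch contained an uninterrupted CT repeat of 60 bases, and 30 of 20630 intervals (0.145%) held a CT or AG repeat at least as long. Whether the repeat lowers the reads counted there was not tested. Each deposited interval was centred within 9 bases of the annotated RefSeq start site and covered sequence on both sides of it. First exons ran from 80 bases at the downstream Urgcp start site to 496 at the upstream one. An interval therefore held all or only part of a first exon. At Hacd1, Pdgfa, the downstream start site of Urgcp and the upstream one of Rims2 it also reached the first coding bases. The interval of the upstream Urgcp promoter overlapped that of the pseudogene Ube2d-ps, and the reads of this pair cannot be separated. Every other interval lay more than 1 kb from the nearest promoter.

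**Figure D1:**
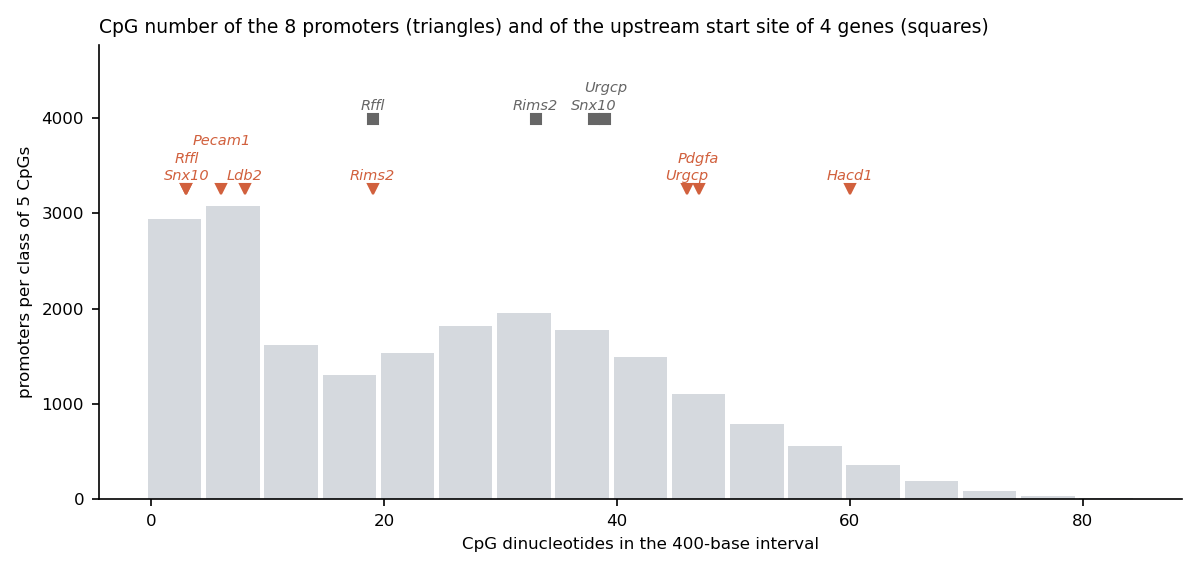
Number of CpG dinucleotides (horizontal axis) in the 400-base intervals of all promoters, as bars that count the promoters in classes of 5 CpGs (vertical axis). Triangles mark the 8 promoters, which run from 3 CpGs at Snx10 and Rffl to 60 at Hacd1, and squares the upstream start sites of Rffl, Rims2, Snx10 and Urgcp, which hold 19 to 39; the height of the symbols has no meaning.

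Short motifs were counted on both strands as a further description. On either strand of the 400 bases, CCAAT was found in 3 of the 8 (Pecam1, Rffl and Rims2) and in 40.0% of all promoters, and GGGCGG in 4 of the 8 (Hacd1, Pdgfa, Rims2 and Urgcp) and in 56.3% of all. CCGGAA was found at Pecam1 alone, against 23.5% of all promoters. None of the 8 held TATAAA (10.4% of all promoters), the E-box CACGTG (9.54%), the AP1 motif TGACTCA (5.00%) or the octamer-like ATGCAAA (4.09%). No motif of these is contained in another, and with 8 sequences such counts describe these windows only.

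Depth differed between the lines, with 1.49 to 1.98 times 1000000 promoter reads in Kdm2a/b-CXXC libraries and 2.01 to 2.58 in Kdm2b-CXXC libraries. A library held between 1.49 and 3.03 times 1000000 reads over all promoters and a median of 58 to 108 reads in an interval, so that 1 read was worth 0.331 to 0.672 RPM, reads per 1000000 reads counted in promoters. Levels below are in RPM, which sets a promoter against the rest of its own library without the spike-in. All 12 intervals held reads in every library. The promoters of Kdm2a and Kdm2b themselves (3 intervals) moved by -0.25 to 0.52 on the log2 scale across the lines, and since the deleted exons lie inside the genes they do not check the deletion. Promoters of 7 embryonic stem cell markers (among them Pou5f1, Nanog and Sox2) summed to 463 to 555 RPM in untreated and 443 to 515 in treated Kdm2a/b-CXXC libraries, and those of 4 primitive endoderm markers to 116 to 151 and 108 to 134. The 5 fibroblast markers summed to 66.3 to 86.7 and 56.8 to 89.0.

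In Kdm2a/b-CXXC cells the mean of each of the 8 promoters was 1.57 to 3.01 times lower after tamoxifen. All 8 log2 fold changes were negative, as the choice of the 8 required (51.1% of those of all promoters tested were). Measured in bulk, a lower level in every cell and a lost level in some cells cannot be told apart. Among the extracellular and surface proteins, the promoter of Pdgfa, which encodes a platelet-derived growth factor ligand, had 57.8, 54.1, 65.2 and 44.4 RPM in the 4 untreated libraries and 29.9, 32.4, 29.96 and 35.1 in the 4 treated ones. Every treated library was below every untreated one, and the mean fell from 55.4 ± 8.65 to 31.8 ± 2.46 (SD, n = 4), a log2 fold change of -0.78. The promoter of Pecam1, an adhesion molecule of endothelium and of undifferentiated mouse embryonic cells, had 53.8, 41.4, 48.5 and 48.4 RPM untreated and 34.3, 23.3, 28.7 and 19.9 treated. The groups were again apart, with a log2 fold change of -0.87. Of the promoters tested in this line, 2.73% had every treated library below every untreated one, and 7 of the 8 did, which their choice on these libraries favours.

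Ldb2 encodes a cofactor that links LIM homeodomain factors to other proteins, and its promoter showed the largest change of the 8. It had 18.1, 19.7, 23.9 and 20.6 RPM untreated and 4.98, 7.59, 4.56 and 10.3 treated. Its mean fell 3.01 times, from 20.6 ± 2.45 to 6.85 ± 2.65 (SD, n = 4), and its log2 fold change was -1.58 with a standard error of 0.32. With 7 to 40 reads in a library its coverage was thin, and its standard error was the largest of the 8.

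Rims2 encodes a scaffold of the presynaptic active zone that helps to dock vesicles, and was the gene in which both start sites were lower. Its downstream promoter (NM_001256384, chr15:39659311-39659710) had 45.7, 61.1, 54.5 and 54.4 RPM untreated and 28.8, 33.9, 25.4 and 30.2 treated, a log2 fold change of -0.86. Its upstream promoter (NM_001256382, chr15:39198086-39198485), 461 kb away, had 69.2, 59.9, 65.8 and 55.0 untreated and 37.0, 41.5, 39.7 and 45.9 treated, a log2 fold change of -0.60. The treated libraries were below all untreated ones at both, and the upstream promoter was left out of the cut only by its adjusted p (0.0940 in limma).

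Snx10 encodes a sorting nexin of endosomal membranes. Its downstream promoter had 78.6, 86.0, 77.2 and 67.6 RPM untreated and 38.7, 44.5, 68.4 and 44.1 treated. It was the member whose groups overlapped, because the third treated library lay at 68.4 and the fourth untreated library at 67.6, and its log2 fold change of -0.68 became -0.86 without that treated library. The upstream promoter of Snx10, 20.6 kb away, had 24.5 to 43.3 RPM untreated and 26.7 to 43.7 treated, with a log2 fold change of 0.07.

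Rffl encodes an E3 ubiquitin ligase of endosomal membranes. Its downstream promoter had 22.8, 21.7, 15.0 and 25.2 RPM untreated and 6.64, 7.08, 11.1 and 7.86 treated, with the groups apart and a mean 2.59 times lower. The log2 fold change was -1.32, whereas at the upstream promoter, 41.7 kb away, it was 0.22, with 60.5 to 73.6 RPM untreated and 70.1 to 84.7 treated.

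Hacd1 encodes a dehydratase of very long chain fatty acid elongation that is best known from muscle. Its promoter, the CpG-richest of the 8, had 75.9, 65.6, 65.2 and 62.3 RPM untreated and 45.3, 38.9, 41.7 and 45.9 treated. The groups were apart and narrow, and the log2 fold change of -0.64 was the smallest of the 8. Urgcp, named as an upregulator of cell proliferation, had 92.7, 94.9, 82.6 and 114 RPM at its downstream promoter untreated and 72.4, 55.1, 50.8 and 59.8 treated, a log2 fold change of -0.69. Its upstream promoter, 21.2 kb away, was the highest of the 12 intervals, with 125 to 150 RPM untreated and 134 to 157 treated and a log2 fold change of 0.10.

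**Figure D2:**
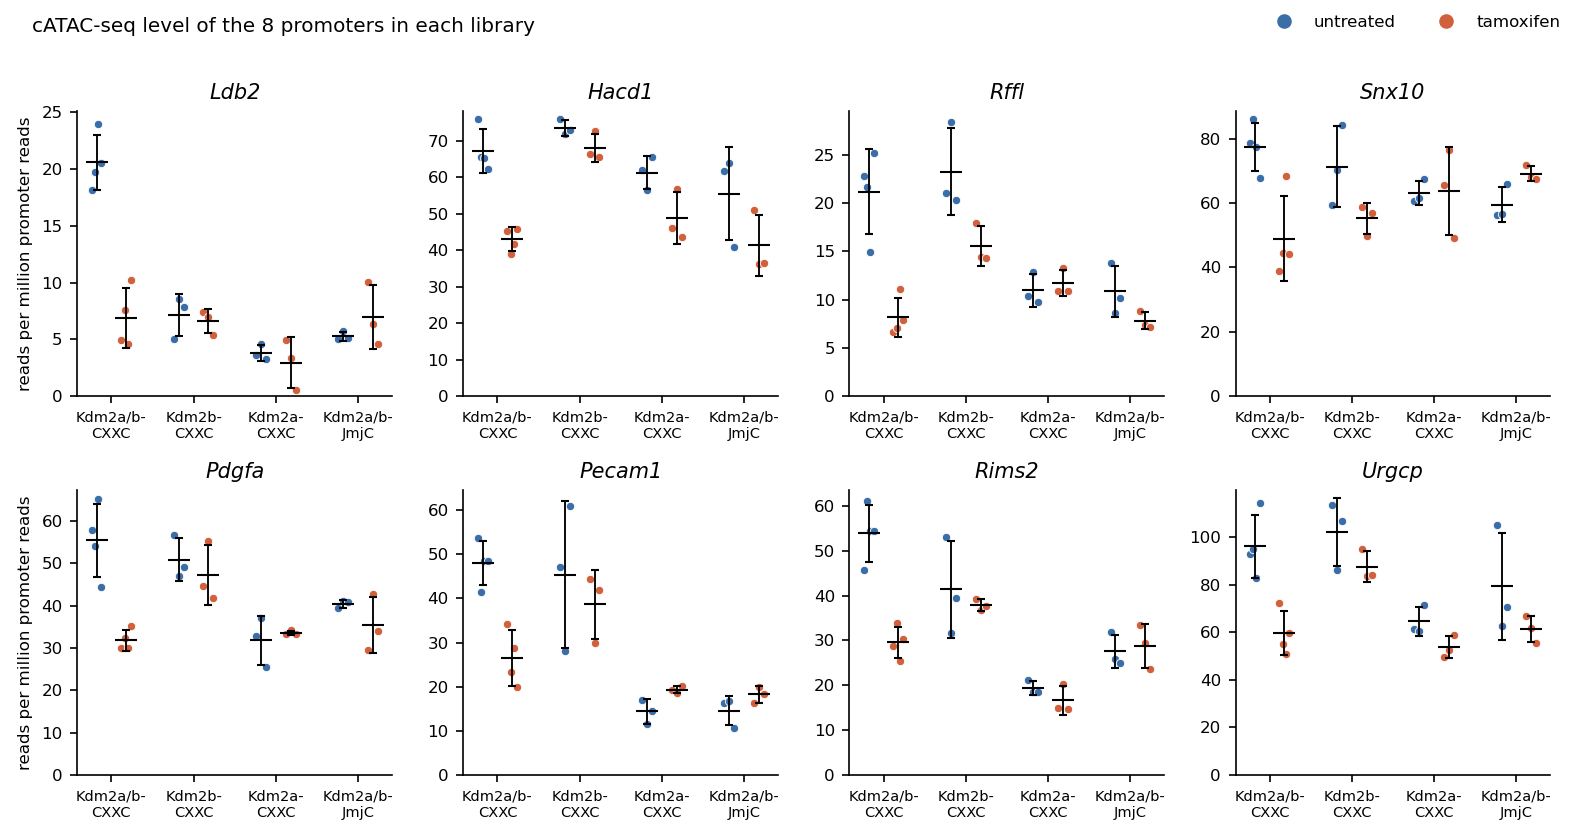
RPM (vertical axis, from 0) at the 8 promoters in each of the 26 libraries, by line (horizontal axis), untreated in blue and after tamoxifen in orange; horizontal marks are means and bars are SD. In Kdm2a/b-CXXC the treated libraries lie below the untreated ones at every promoter except Snx10, where 1 treated library at 68.4 reaches the lowest untreated one at 67.6.

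The 8 were among the promoters past a cut on a limma fit, at 0.05 for the Benjamini-Hochberg adjusted p over 16413 promoters and 1.4 for the fold change. In all 18 promoters (0.11%) lay past it, of which 12 (0.0731%) in the lower direction. Besides the 8 these were Otx2, Hmx3, LOC666331 and Mical1, so the 8 were not the whole output of the cut. Mical1 lay just inside, with a log2 fold change of -0.78 and an adjusted p of 0.0483, and Bend4 just outside, with -0.56 and 0.0555. Hacd1 was the weakest of the 8 at an adjusted p of 0.0438. When 1 library was left out at a time, between 1 of the 8 (without the third untreated library) and 7 (without the third treated one) stayed past the cut, and 3 or 4 without any of the others, while all 8 kept a negative log2 fold change.

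On the scale of the deposited values, which the authors calibrated with the Drosophila reads, the promoters of the Kdm2a/b-CXXC line as a whole shifted by a median log2 fold change of 0.09 after tamoxifen. All 8 promoters had a negative log2 fold change, from -1.48 to -0.55. In 4 of them (Ldb2, Rims2, Pdgfa and Rffl) every treated library was below every untreated one, against 0.597% of the promoters tested. These are the reads on which the 8 were picked, so both counts are a description and no further support. None of the 8 passed the cut on that scale.

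In Kdm2b-CXXC cells, the line from which the double line was made, the same 8 promoters all had a negative log2 fold change, and none of them passed the test. The median was -0.14 and the range -0.56 to -0.09, beside a median of 0.00 over all 17930 promoters tested, of which 49% were negative. On the calibrated scale, where all promoters shifted up by a median of 0.10, 6 of the 8 were negative, as were 5190 of 17930 promoters tested. In this line 1 promoter (0.00558%) was called, and it was not one of the 12. At an unadjusted p under 0.05, 2 of the 8 were lower, against 3.95% of all promoters, and the treated libraries lay below all untreated ones at the same 2, against 6.1% of all.

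The first of these was the downstream Rffl promoter, with 21.0, 28.4 and 20.3 RPM in the untreated and 17.9, 14.4 and 14.3 in the treated Kdm2b-CXXC libraries. Its log2 fold change was -0.56 (95% interval -1.03 to -0.08, limma adjusted p = 0.565 over all promoters). The other was the downstream Snx10 promoter, with 59.2, 70.2 and 84.3 untreated and 58.9, 49.7 and 56.96 treated. Its log2 fold change was -0.35 (95% interval -0.62 to -0.08, limma adjusted p = 0.511).

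For the remaining 6 promoters the interval of the change in Kdm2b-CXXC held 0. Urgcp had 113, 86.0 and 107 RPM untreated and 95.1, 83.6 and 84.1 treated, with overlapping groups and a log2 fold change of -0.21 (95% interval -0.43 to 0.01). The intervals were -0.36 to 0.14 for Hacd1, -0.41 to 0.19 for Pdgfa, -0.43 to 0.24 for Rims2 and -0.52 to 0.17 for Pecam1. For Ldb2 the interval ran from -0.88 to 0.70, with 13 to 21 reads in a library. The 4 upstream promoters had log2 fold changes of -0.04 to 0.08.

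In Kdm2a-CXXC cells no promoter was called by limma, edgeR or DESeq2 among 17727 tested (0%), with 1092, 1059 and 524 at an unadjusted p under 0.05. Ldb2 was too low to be tested, with 3.59, 4.63 and 3.23 RPM untreated and 4.96, 3.32 and 0.545 treated. Of the other 7, 4 had a negative log2 fold change (49.2% of all promoters did), with a median of -0.01. Hacd1 was the single member with an unadjusted p under 0.05 in the lower direction, against 2.98% of all promoters. It had 61.9, 56.5 and 65.5 RPM untreated and 46.1, 56.9 and 43.6 treated, so that 1 treated library reached the lowest untreated one, and its log2 fold change was -0.33 (95% interval -0.63 to -0.03, limma adjusted p = 0.787). The downstream Urgcp promoter was the only one of the 7 whose treated libraries all lay below the untreated ones (5.41% of all promoters), at 49.6, 52.6 and 58.9 against 61.5, 60.5 and 71.5, with a log2 fold change of -0.26 (95% interval -0.55 to 0.03, limma adjusted p = 0.836). Pecam1 lay the other way, with 17.1, 11.6 and 14.5 untreated and 19.3, 18.5 and 20.2 treated, a log2 fold change of 0.43 (95% interval -0.08 to 0.94, limma adjusted p = 0.858), and 5.77% of all promoters had every treated library above.

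Loss of the long isoforms in the Kdm2a/b-JmjC line left the members about evenly split. No promoter was called among 17174 tested in Kdm2a/b-JmjC cells (0%) by limma, edgeR or DESeq2, with 970, 926 and 479 at an unadjusted p under 0.05. Of the 8 promoters, 4 had a negative log2 fold change (49.6% of all did), with a median of -0.07. Hacd1 and the downstream Urgcp promoter had an unadjusted p under 0.05 in the lower direction, against 2.75% of all promoters. Hacd1 had 61.8, 64.1 and 40.8 RPM untreated and 51.0, 36.4 and 36.6 treated, a log2 fold change of -0.41 (95% interval -0.80 to -0.03, limma adjusted p = 0.875). Urgcp had 105, 62.6 and 70.4 untreated and 66.8, 61.7 and 55.6 treated, a log2 fold change of -0.34 (95% interval -0.66 to -0.01, limma adjusted p = 0.876). The groups overlapped at both, and in each an untreated library stood away from the other two, at 40.8 for Hacd1 and 105 for Urgcp.

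At no promoter of the 8 did every treated JmjC library lie below every untreated one (5.3% of all promoters), while the downstream Snx10 promoter lay above, at 71.8, 68.0 and 67.4 against 56.2, 56.4 and 65.8 (5.51% of all promoters were so). Its log2 fold change was 0.22 (95% interval -0.10 to 0.54). The upstream Rffl promoter was higher too, at 65.5, 65.4 and 63.5 treated against 49.97, 52.6 and 49.5 untreated, with a log2 fold change of 0.35 (95% interval 0.02 to 0.69, limma adjusted p = 0.875), 1 of the 2.89% of promoters that were higher at an unadjusted p under 0.05. On the calibrated scale all promoters of this line shifted by a median of -0.21 and those of Kdm2a-CXXC by -0.18, so the signs of small changes in these lines depend on the scale. There 5 of 8 and 6 of 7 of the promoters were negative, as were 14327 of 17174 and 14396 of 17727 of all promoters tested.

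**Figure D3:**
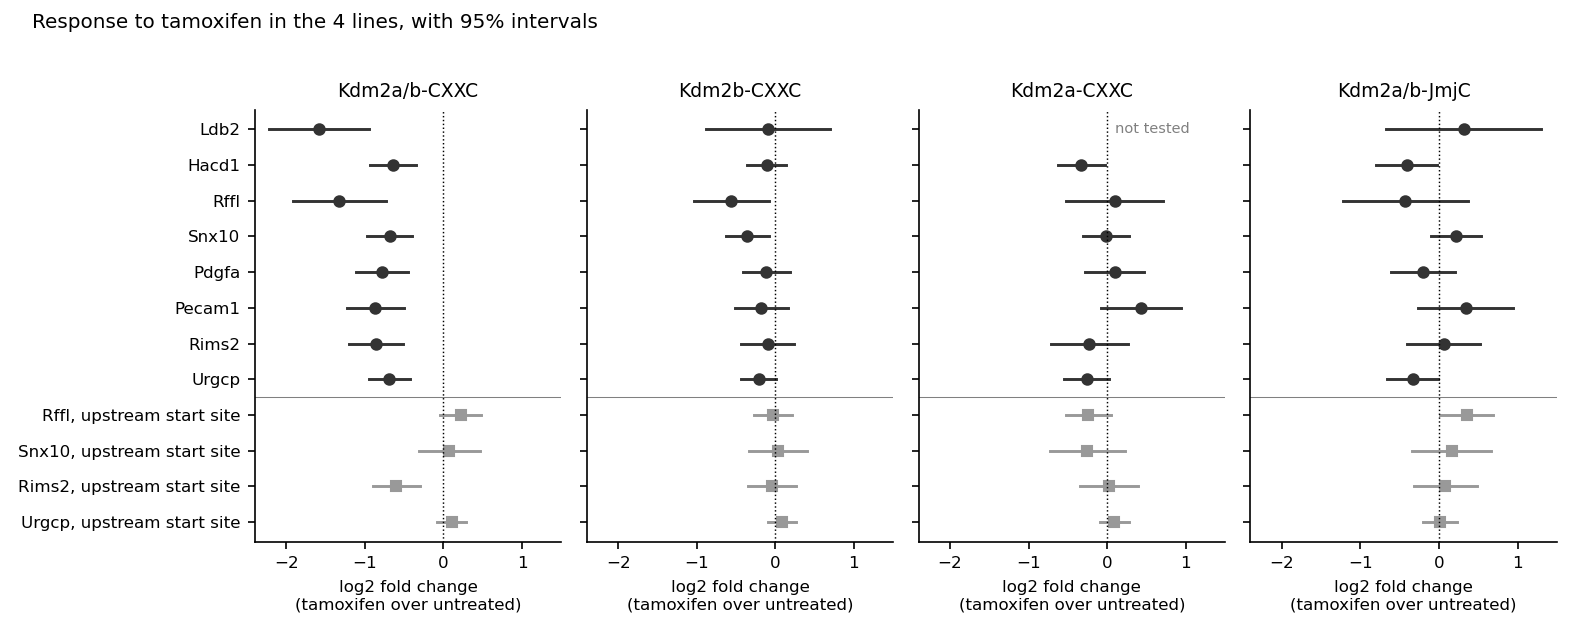
Log2 fold change of tamoxifen over untreated libraries (horizontal axis) at the 8 promoters (circles) and the 4 upstream promoters of the same genes (squares) in each line, from limma fits on log2 RPM, with 95% intervals. The intervals of Kdm2a/b-CXXC belong to the contrast that picked the 8; in the other lines most intervals hold 0, and Ldb2 was not tested in Kdm2a-CXXC.

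The difference between the responses of the 3 lines not used for the choice was tested in 1 fit over their 18 libraries. None of the 12 promoters passed in any of the 3 pairs of lines, and no promoter of 19456 did in limma, with 911 to 1193 at an unadjusted p under 0.05. Of the 8, the downstream Snx10 promoter had the smallest p, with a difference of 0.57 between Kdm2a/b-JmjC and Kdm2b-CXXC (95% interval 0.15 to 0.99, limma adjusted p = 0.699). The estimates for Ldb2, Rffl and Pecam1 were larger in 1 or more pairs, up to 0.93 for Ldb2 between Kdm2a/b-JmjC and Kdm2a-CXXC, with wider intervals (-0.46 to 2.31 for Ldb2). A difference in response between these lines was therefore not shown for any of the 8.

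Since 4 of the genes had 2 start sites, the balance between them could be read within each library, without any scaling. In Kdm2a/b-CXXC the downstream promoter of Rffl took 26.6, 26.4, 17.5 and 25.5% of the reads of both promoters untreated and 7.55, 8.54, 11.6 and 10.1% treated. For Urgcp it took 40.7, 43.1, 35.5 and 46.9% untreated and 26 to 33.4% treated. The groups were apart at these 2 genes. This is a description without a test, because the downstream promoters were picked for their fall in these same libraries. For Snx10 the share was 66.5 to 74.1% untreated and 47.0 to 71.9% treated, and for Rims2, where both start sites fell, 39.8 to 50.5% and 39.0 to 45.0%, with overlap at both.

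The downstream share of Rffl was also lower after tamoxifen in 2 of the other lines. In Kdm2b-CXXC the downstream share was 19.3, 23.9 and 22.9% untreated and 19.0, 14.9 and 15.0% treated, and in Kdm2a/b-JmjC it was 21.6, 14.1 and 17.1% against 11.9, 10.1 and 10.2%. In Kdm2a-CXXC it was 15.5, 14.1 and 11.01% against 14.9, 20.1 and 14.7%, so the direction was not shared by that line. For Snx10 the downstream share in Kdm2b-CXXC was 69.1, 66.5 and 70.7% untreated and 58.2, 63.7 and 65.9% treated. In the 3 lines 12 comparisons of this kind were made, and with 3 libraries against 3 the smallest two-sided p of an exact permutation test is 0.1. It was reached at Rffl in Kdm2b-CXXC and Kdm2a/b-JmjC and at Snx10 in Kdm2b-CXXC and, in the higher direction, Kdm2a-CXXC, with an adjusted p of 0.3 in the exact permutation test each.

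**Figure D4:**
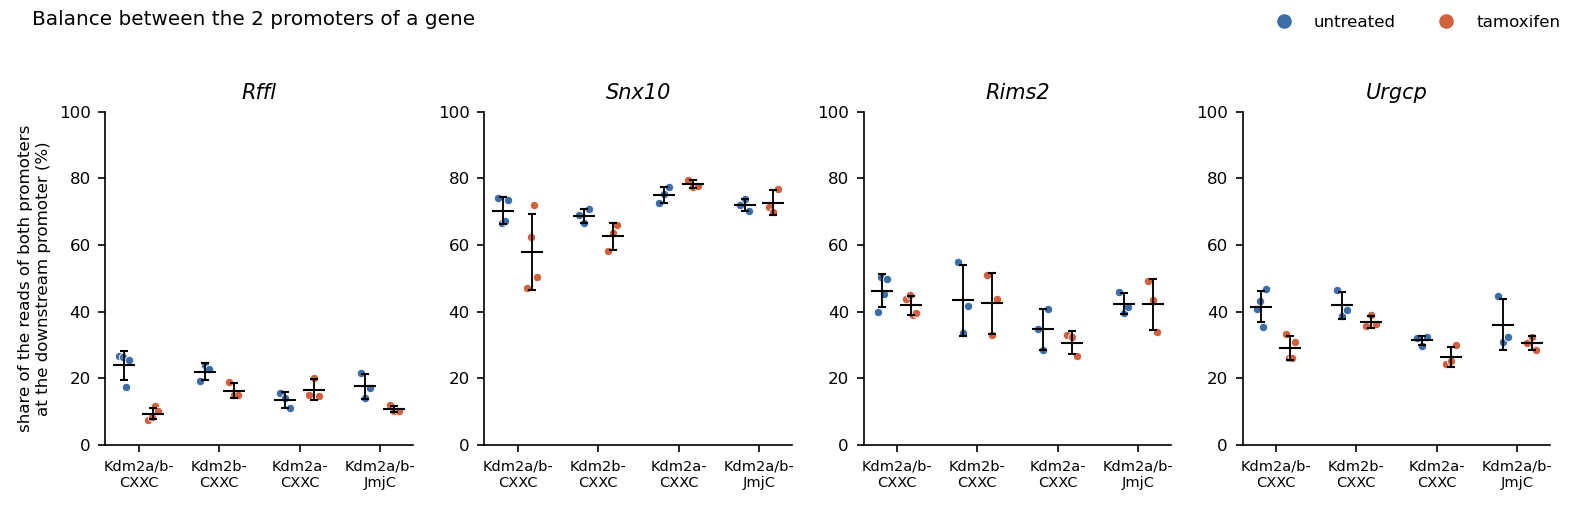
Share of the reads of both promoters of a gene that fell in the downstream promoter (vertical axis, percent), for the 4 genes with 2 start sites, in each library by line, untreated in blue and after tamoxifen in orange; horizontal marks are means and bars are SD. The treated libraries lie below the untreated ones at Rffl in 3 of the 4 lines, at Urgcp in Kdm2a/b-CXXC and at Snx10 in Kdm2b-CXXC. The Kdm2a/b-CXXC libraries are those on which the downstream promoters were picked.

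Before treatment the lines already differed at these promoters. The order is a description, because the 4 tables were made separately and the line, its derivation and its handling cannot be told apart. In untreated Kdm2b-CXXC cells, whose values played no part in the choice, all 8 promoters had a higher mean log2 level than in untreated Kdm2a/b-JmjC cells (54.6% of 17930 promoters did) and than in untreated Kdm2a-CXXC cells (59.8%). The median difference was 0.41 and 0.75 on the log2 scale, against 0.03 and 0.07 over all promoters. At Hacd1, Pecam1, Pdgfa and Rffl, 4 of the 8, every untreated Kdm2b-CXXC library was above all 6 untreated libraries of those 2 lines, against 5.96% of promoters. After tamoxifen the same held for the treated libraries at 5 of the 8 (5.72%). In Kdm2a/b-CXXC it was so at 6 of the 8 untreated (5.76%) and at 0 of the 8 treated (5.11%). The 8 were picked for their fall between these same libraries, which favours both counts, so they are no further support.

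Pdgfa illustrates these levels. The 6 Kdm2b-CXXC libraries, untreated and treated, held 41.8 to 56.5 RPM, the 4 untreated Kdm2a/b-CXXC libraries 44.4 to 65.2, and the 12 libraries of Kdm2a/b-JmjC and Kdm2a-CXXC 25.5 to 42.7. After tamoxifen Kdm2a/b-CXXC held 29.9 to 35.1, within the range of those 12 libraries and below all 6 of Kdm2b-CXXC. These Kdm2a/b-CXXC values are those of the contrast that picked the genes. At 0 of the 8 was the treated Kdm2a/b-CXXC mean log2 level above that of treated Kdm2b-CXXC cells (47.3% of all promoters were). The choice of the 8 on these treated Kdm2a/b-CXXC libraries favours this count too.

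Pecam1 and Snx10 differed from Pdgfa in this, since their treated means lay outside the range of those 12 libraries. Pecam1 held 19.9 to 34.3 RPM in treated Kdm2a/b-CXXC libraries, mostly above the 10.7 to 20.2 of the 12 libraries and overlapping the 28.0 to 61.0 of Kdm2b-CXXC. Snx10 had a treated mean of 48.9, just below the lowest of the 12 libraries at 49.1.

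Ldb2 was the only member whose untreated Kdm2a/b-CXXC libraries all lay above those of the parent line, Kdm2b-CXXC. It had 5.07, 8.52 and 7.89 RPM in untreated Kdm2b-CXXC libraries and 0.545 to 10.1 in the 12 libraries of the other 2 lines, so that its level of 18.1 to 23.9 was found in untreated Kdm2a/b-CXXC cells alone. Treated Kdm2a/b-CXXC libraries, at 4.56 to 10.3, overlapped those of every other line. The downstream Rffl promoter had 20.3 to 28.4 in untreated Kdm2b-CXXC, 15.0 to 25.2 in untreated Kdm2a/b-CXXC and 7.20 to 13.7 in the 12 libraries, against 6.64 to 11.1 in treated Kdm2a/b-CXXC cells. The downstream Rims2 promoter had 31.6 to 53.0, 45.7 to 61.1, 14.7 to 33.4 and 25.4 to 33.9 in the same order. The median log2 level of untreated libraries over all promoters of chromosomes 2, 5, 6, 11 and 15, where the genes lie, was set against the mean of the 4 lines. The largest departures were those of chromosome 6, which carries Snx10, at 0.12 for Kdm2a/b-CXXC and -0.11 for Kdm2a-CXXC. For Kdm2b-CXXC this chromosome was at 0.03 and for Kdm2a/b-JmjC at -0.05. The other chromosomes stayed within -0.06 to 0.05. Snx10 is counted above among the promoters with higher untreated levels. How much of its differences between lines is shared by its whole chromosome was not tested.

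The promoters whose profiles were most like the mean of the 8 were those of Zfp672 (Pearson r = 0.84), Foxl2 (0.77), Lacc1 (0.75), Prdm14 (0.74) and Fn1 (0.73), over 26 libraries centred within their line and among 16030 promoters. These values are a description, since the libraries of a line share their scaling and the 8 were picked on 8 of the libraries. Over the 18 libraries of the other lines the same correlations were 0.72, 0.50, 0.42, 0.60 and 0.19. Prdm14, a transcription factor of naive pluripotent cells, had a log2 fold change of -0.76 in Kdm2a/b-CXXC and -0.50 in Kdm2b-CXXC. Between the 8 themselves the median of the 28 pairwise correlations was 0.54 over all 26 libraries and 0.11 over those 18, with a range of -0.26 to 0.56 in the latter.

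None of the relatives and partners of the 8 genes was called. Of 54 such genes, 53 were listed with 61 promoters, of which 55 were tested in Kdm2a/b-CXXC and 56 to 58 in the other lines, and 0 were called in any line by limma. At an unadjusted p under 0.05, 3 were lower and 3 higher in Kdm2a/b-CXXC, where 5.28% and 4.42% of all promoters were. The numbers were 3 and 1 for Kdm2a/b-JmjC (2.75% and 2.89%), 2 and 0 for Kdm2a-CXXC (2.98% and 3.18%) and 1 and 3 for Kdm2b-CXXC (3.95% and 3.78%). Their median log2 fold change was -0.02 in Kdm2a/b-CXXC and -0.04 to -0.02 in the other lines, beside -0.01 to 0.00 over all promoters.

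Among the other PDGF ligands and receptors, the largest log2 fold change in any line was -0.68 at the receptor Pdgfra in Kdm2b-CXXC (limma adjusted p = 0.824). Among other proteins of the presynaptic active zone it was 0.59 at Rims3 in the same line (limma adjusted p = 0.833), and among LIM cofactors and partners 0.91 at Lmo2 in Kdm2a/b-JmjC (limma adjusted p = 0.879). The largest log2 fold change of 5 other sorting nexins was 0.20 at Snx12 in Kdm2a/b-CXXC, and Rnf34, the paralogue of Rffl, was at -0.20 in Kdm2a/b-JmjC. Among the other genes of very long chain fatty acid elongation 12 of 12 promoters were negative in Kdm2a/b-JmjC (49.6% of all promoters were), with a median of -0.21, 9 of 12 in Kdm2a-CXXC (49.2%), 7 of 12 in Kdm2b-CXXC (49%) and 6 of 12 in Kdm2a/b-CXXC (51.1%). The largest change was 0.65 at the elongase Elovl3 in Kdm2b-CXXC (limma adjusted p = 0.508).

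Markers of other cell types were followed beside Pecam1. The 10 endothelial genes had 9 tested promoters in Kdm2a/b-CXXC, of which Erg was lower (-0.84) and Eng higher at an unadjusted p under 0.05, and the largest change of the list was -1.03 at Tie1 in Kdm2a/b-JmjC (limma adjusted p = 0.879). Promoters of the 4 markers of endothelium (Cdh5, Kdr, Tek and Tie1) summed to 74.5 to 107 RPM in untreated and 67.1 to 93.2 in treated Kdm2a/b-CXXC libraries, which overlap. In Kdm2b-CXXC the same sum was 86.0 to 92.4 untreated and 73.2 to 78.5 treated, with the groups apart, and the sum of the 5 fibroblast markers was 62.1 to 71.3 untreated and 73.1 to 91.1 treated, apart in the higher direction. In Kdm2a/b-JmjC and Kdm2a-CXXC the groups overlapped for both sums. The sums of the embryonic stem cell and primitive endoderm markers overlapped in every line. The sums were not tested, and with 3 libraries against 3 the smallest two-sided p of an exact permutation test is 0.1. Of 7 tested promoters of embryonic stem cell markers, 4 had a negative log2 fold change in Kdm2a/b-CXXC (51.1% of all promoters did). At an unadjusted p under 0.05, 3 were lower (5.28% of all), and the largest change was -0.59 at Nanog. In Kdm2b-CXXC 5 of 8 were negative (49% of all) and 3 were lower at that p (3.95% of all). The largest change there was 0.57 at Esrrb, with a limma unadjusted p of 0.237 and adjusted p of 0.836. None of these was called, and their part in the changes of the 8 promoters was not tested.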

How the data were processed

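ATAC libraries of 4 conditional mESC lines were analysed. The 26 input DNA libraries of the series were not analysed here. Per the labels and the study's methods, the authors aligned paired-end reads with Bowtie2 to mm10 joined to dm6, removed multimapping reads, PCR duplicates, mitochondrial and blacklisted reads, and counted reads in non-redundant promoter intervals. The deposited signal is those counts divided by DESeq2 size factors that the authors derived from Drosophila reads, corrected by the input ratio (0.718 to 1.412). Dividing a column by its smallest step gave whole reads for 100% of values (tolerance 0.01). Columns of the authors' own comparisons were not used.

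Reads were scaled to the promoter total of each library and tested with limma 3.58.1 (R 4.3.3, eBayes with trend) on log2(RPM + 0.5), RPM being reads per 1000000 promoter reads, after edgeR's filterByExpr, within each line, untreated against tamoxifen, two-sided, with Benjamini-Hochberg adjustment over all promoters tested. Fold changes are on that scale, which understates changes of low promoters. The cut for a call was 0.05 for the adjusted p together with 1.4 for the fold change. The 8 genes and the lists of relatives and markers were chosen with earlier results of these data known. Named besides them were the promoters just inside and outside the cut, overlapping promoters, the 5 most similar promoters and the largest change of each list. Symbols were matched to RefSeq for 99.1% of IDs, and sequence was read from GRCm38.p6, which is mm10. Alternatives were TMM (edgeR 4.0.16) and median-of-ratios scaling, the calibrated values, edgeR, DESeq2 1.42.0, no filter, other pseudocounts, a replicate block and leaving out each library. The scripts were tested on simulated data.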

Additional observations from a re-analysis of the deposited data

How the results depend on the processing

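The 8 promoters kept a negative log2 fold change in Kdm2a/b-CXXC under every alternative run, but how many promoters lay past the cut varied. With calibrated values 0 promoters (0 of the 8) were called in Kdm2a/b-CXXC, 0 in Kdm2b-CXXC and 13 in Kdm2a/b-JmjC, none of them one of the 12. Against 18 in Kdm2a/b-CXXC, DESeq2 called 9 and a pseudocount of 0.1 gave 11, both with 8 of the 8, and no filter on low values gave 7 (6 of the 8). DESeq2 called 0 in Kdm2b-CXXC. Leaving out 1 library gave 2 to 15 promoters and 1 to 7 of the 8 in Kdm2a/b-CXXC, the lowest without untreated replicate 3, and 0 to 5 promoters in Kdm2b-CXXC (5 without tamoxifen replicate 3). The cause of these changes was not tested.

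Same-numbered libraries deviated together weakly or not at all (correlation -0.005 to 0.072), and the main fits used no pairing. In Kdm2a/b-JmjC these correlations were 0.045 to 0.072, against -0.057 to 0.00086 between differently numbered libraries, so the libraries of that line may be weakly paired. With the replicate block, 23 promoters were called in Kdm2a/b-CXXC (8 of the 8), 1 in Kdm2b-CXXC and 0 in the other lines, and 2 promoters, neither of them one of the 12, for the difference between Kdm2a/b-JmjC and Kdm2b-CXXC. Leaving out 1 library gave 0 to 2 for that difference (2 without Kdm2b-CXXC untreated replicate 3).

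Small changes turned sign with calibrated values. In Kdm2a/b-JmjC they became -0.21 (Urgcp upstream), -0.049 (Snx10 upstream), -0.13 (Rims2 upstream) and -0.15 (Rims2 downstream), in Kdm2a-CXXC -0.10 (Urgcp upstream), -0.16 (Rims2 upstream), -0.089 (Pdgfa) and -0.085 (Rffl downstream), and in Kdm2b-CXXC 0.0058 (Ldb2), 0.063 (Rffl upstream), 0.054 (Rims2 upstream) and 0.00028 (Rims2 downstream). In Kdm2a-CXXC Snx10 downstream was 0.018 with edgeR and 0.016 with DESeq2, and Rims2 upstream -0.0033 with edgeR. Without 1 library, values crossed 0 in Kdm2a/b-JmjC for Urgcp upstream (-0.051 to 0.068), Rims2 upstream (-0.029 to 0.17) and downstream (-0.054 to 0.19), in Kdm2a/b-CXXC for Snx10 upstream (-0.057 to 0.21), and in Kdm2a-CXXC for Snx10 downstream (-0.15 to 0.16), Rims2 upstream (-0.19 to 0.19) and Pdgfa (-0.053 to 0.21). In Kdm2b-CXXC they did so for Pecam1 (-0.49 to 0.069), Ldb2 (-0.30 to 0.045), Urgcp upstream (-0.020 to 0.17), Snx10 upstream (-0.14 to 0.14), Rffl upstream (-0.16 to 0.041), Rims2 upstream (-0.31 to 0.18) and downstream (-0.27 to 0.099). Of the 8, 7 or 8 stayed negative in Kdm2b-CXXC without any 1 library.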
